A study of Mus musculus with 36 samples.

Results

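The comparison described here is the difference between cerebellum (Cb) and forebrain/midbrain (F/M) in how gene expression changed with loss of Tpp1 at 2 months of age. It used every library labelled 2 months, 12 of the 36 of the series, chosen by their labels alone. These are 3 control and 3 Tpp1-/- libraries of F/M and 3 control and 3 Tpp1-/- libraries of Cb, each from polyadenylated RNA of male mice. The controls of this age are labelled wild type, and the Tpp1-/- mice carry a targeted disruption of both Tpp1 alleles, which models CLN2, the late infantile form of neuronal ceroid lipofuscinosis. The line was kept by heterozygous crosses and the controls were siblings of matched age. Libraries of 1 and 3 months, 12 each, are used only where they are named. They come from both sexes, and control replicate 3 of either region at 1 month is labelled Tpp1+/-, while the other controls are wild type. Each library is bulk tissue, so that fewer cells of a type and less RNA per cell cannot be told apart. The p values rest on the spread between the 3 libraries of a group. That spread was estimated for each gene over the 4 groups together, also for the change within 1 region.

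Tpp1 encodes tripeptidyl peptidase 1, a lysosomal protease, and without it neurons accumulate lipofuscin that contains subunit c of the mitochondrial ATP synthase. The regions of the brain are built from different neurons, which keep into adult life the transcription factors that patterned them. Homeobox and related factors such as Tcf7l2, Lhx9, Six3, Shox2 and Gata3 mark nuclei of the thalamus, pretectum and midbrain, Neurod6 and Nrgn mark excitatory neurons of the cortex, and En2, Barhl1 and Ppp1r17 mark cerebellar cells.

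The total counts lay between 10609896 (F/M Tpp1-/- replicate 3) and 27048487 (Cb Tpp1-/- replicate 1), and levels are given as CPM, the count scaled to the library total with TMM factors, with 3 libraries in each group. Tpp1 itself was at 94.8, 92.4 and 91.5 CPM in F/M controls and at 21.7, 21.4 and 20.9 CPM in F/M Tpp1-/- mice. In Cb it was at 111, 110 and 111 CPM in controls and at 27.8, 25.4 and 26.5 CPM in Tpp1-/- mice. The groups lay far apart in both regions, and the log2 fold changes of −2.12 ± 0.06 (SE) in F/M and −2.06 ± 0.06 in Cb differed by 0.06 ± 0.09 (adjusted p = 0.853). The tissue labels fit their markers: the summed level of 24 Purkinje cell genes was 10900 to 13500 CPM in Cb and 1590 to 1820 CPM in F/M, and that of 28 genes of cortex and striatum was 591 to 731 CPM in Cb and 6260 to 6730 CPM in F/M.

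The response to the mutation was lower in Cb than in F/M for many genes and higher for few. The region difference of a gene is its log2 fold change (Tpp1-/- over control) in Cb minus that in F/M, so that a negative value means a larger fall, or a smaller rise, in Cb. A gene was called when its adjusted p was under 0.1. Of 17229 genes tested, 511 were called (2.97%), 481 of them lower (2.79%) and 30 higher (0.174%). The median difference was −1 among the genes called lower, 0.58 among those called higher and −0.01 over all genes tested. Among the 481, 291 fell in Cb and were not called in F/M, 94 rose in F/M and were not called in Cb, 22 fell in Cb and rose in F/M, 4 fell in both and 70 were called in neither region alone. At the same threshold 3.08% of all genes tested changed in Cb (2.72% fell) and 3.17% in F/M (2.26% rose). Among the 30 genes called higher, 17 fell in F/M alone, 6 rose in Cb alone and 7 were called in neither. Of these 30, 10 remained called without Cb control replicate 3, 7 of the 17 without Cb Tpp1-/- replicate 2 and 3 of the 6 without Cb control replicate 2. The number called lower was 305 without Cb control replicate 2 and 711 without F/M control replicate 1, and the number called higher was 13 without F/M Tpp1-/- replicate 3 and 121 without F/M control replicate 1. Of the 481 genes, 246 were called in all 12 fits that left out 1 library. Of the 70 called in neither region alone, 17 remained without F/M Tpp1-/- replicate 3 and 6 in all 12 fits.

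**Figure D1:**
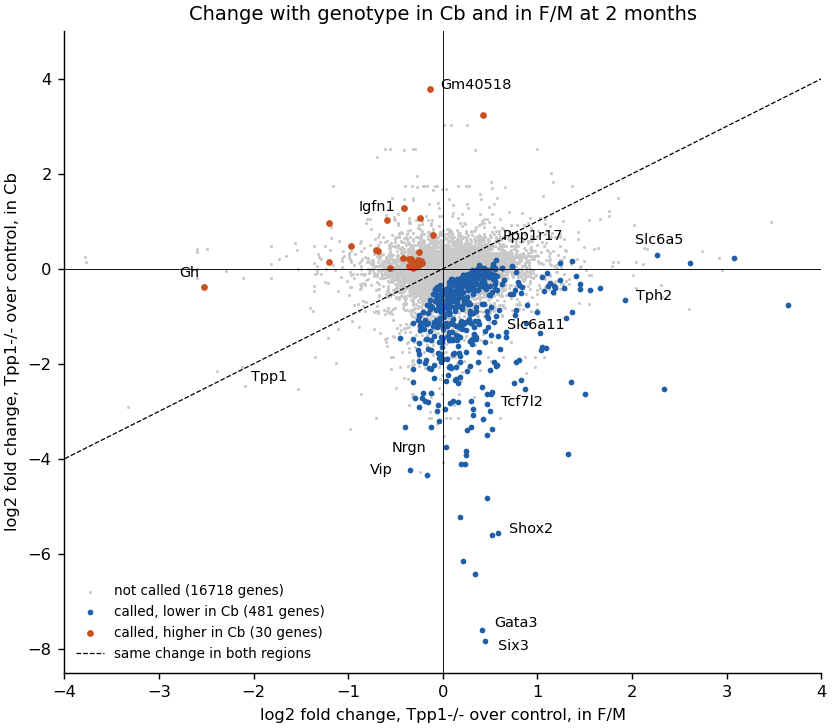
Log2 fold change of Tpp1-/- over control in F/M (x axis) and in Cb (y axis) at 2 months, 1 point per gene tested, with genes called for the region difference in blue (481, lower in Cb) and orange (30, higher in Cb). The dashed line marks equal change in both regions, on which Tpp1 lies, and 4 genes lie outside the axes. The blue points spread mainly downwards, along the Cb axis, with a second arm to the right along the F/M axis.

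Transcription factors of the midbrain and thalamus were prominent among the genes that fell in Cb. Of 29 tested genes of a list for these regions, 14 were called lower and 0 higher, with a median region difference of −1.07. All 14 fell in Cb and 5 of the list rose in F/M. Tcf7l2 (chromosome 19, 55741810 to 55933654 of GRCm38), a Wnt pathway factor that marks the thalamus, was at 31.8, 37.7 and 35.6 CPM in Cb controls and at 3.57, 5.09 and 4.69 CPM in Cb Tpp1-/- mice. In F/M it was at 28.2, 35.1 and 30.5 CPM in controls and at 43.3, 44.2 and 45.3 CPM in Tpp1-/- mice. Both regions thus separated by genotype, in opposite directions. Its log2 fold change was −3 ± 0.12 in Cb and 0.50 ± 0.10 in F/M, and the region difference was −3.50 ± 0.16 (adjusted p = 8.85e-11). Lhx9, a LIM homeobox factor, was at 13.1, 18.3 and 14.8 CPM in Cb controls and at 1.56, 1.14 and 1.37 CPM in Cb Tpp1-/- mice, and its region difference was −3.96 ± 0.23 (adjusted p = 3.84e-09). Shox2 was at 7.25, 13.2 and 10.3 CPM in Cb controls and at 0.182, 0.227 and 0.25 CPM in Cb Tpp1-/- mice, while in F/M it went from 10.1, 14.6 and 12.5 CPM in controls to 21.2, 15.4 and 18.8 CPM. Its difference was −6.13 ± 0.39 (adjusted p = 1.51e-08). Both genes, like Tcf7l2, were lower in every Cb Tpp1-/- library and higher in every F/M Tpp1-/- library than in the controls of that region.

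Several factors fell in Cb to the limit of detection, taken as 3 counts. Six3 had 296 counts over the 3 Cb control libraries and 1 count over the 3 Cb Tpp1-/- libraries, a ratio of 326 (95% interval 58 to 12900, counting error only), while F/M held 12, 14.2 and 11.4 CPM in controls and 18.9, 14.6 and 18.1 CPM in Tpp1-/- mice. Gata3, a zinc finger factor of midbrain GABAergic neurons, had 75 counts in Cb controls and 0 in Cb Tpp1-/- mice, which is at least 27.5-fold lower against 3 counts over the group. Its F/M levels overlapped, at 1.27, 1.16 and 1.78 CPM in controls and 1.44, 2.21 and 2.01 CPM in Tpp1-/- mice. Nr2e1, a nuclear receptor of neural stem cells, had 27 counts in Cb controls and 0 in Cb Tpp1-/- mice, at least 9.90-fold lower. Tfap2d, a factor of the midbrain, went from 191 to 2 counts in Cb, a ratio of 105 (95% interval 28.7 to 874). Six3os1, antisense to Six3, went from 151 to 3 counts, a ratio of 55.4 (18.6 to 272). Emx2 went from 33 to 2, a ratio of 18.2 (4.64 to 156), and its antisense partner Emx2os from 38 to 2, a ratio of 20.9 (5.4 to 179). Since these pairs overlap on opposite strands, the split of reads between partners rests on the strand setting of the authors' counting. The fitted region differences of such genes, −8.29 for Six3, −8.01 for Gata3 and −6.76 for Tfap2d, depend on the prior count of the fit and are no measure of size. Pou4f2, a POU factor of the tectum and retina, was at 1.32, 3.16 and 1.80 CPM in Cb controls and at 0.0364, 0.182 and 0.25 CPM in Cb Tpp1-/- mice, with a difference of −5.20 ± 0.62 (adjusted p = 4.27e-05).

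Other called genes of this list included Zfhx3, Slc17a6, Pax7, Sox14, Tal1 and Pou4f1. Slc17a6, the vesicular glutamate transporter of subcortical excitatory neurons, was at 73.9, 100 and 86.7 CPM in Cb controls and at 41.9, 22.9 and 31.1 CPM in Cb Tpp1-/- mice, with a region difference of −1.79 ± 0.20 (adjusted p = 2.36e-05). Zfhx3 rose in every F/M Tpp1-/- library, from 21.0, 17.3 and 18.2 CPM to 27.1, 27.1 and 32.1 CPM, and fell in Cb from 10.1, 13.4 and 11.8 CPM to 3.64, 3.68 and 3.69 CPM. Of the 14 calls, 13 remained in all 12 fits that left out a library. The same direction held over the wider family of regional transcription factors (homeobox, LIM, POU, forkhead, Pax, Irx and related genes), in which 28 of 93 tested members were called lower and 0 higher, with a median of −0.48. In that family 21 fell in Cb, 0 rose in Cb, 14 rose in F/M and 0 fell in F/M. It includes Lhx2, a factor of the cortex that went in Cb from 1.44, 1.85 and 1.80 CPM to 0.291, 0.0908 and 0.375 CPM.

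The summed level of the 30 genes of the midbrain and thalamus list was 374 to 433 CPM in Cb controls and 259 to 276 CPM in Cb Tpp1-/- mice, and 444 to 483 CPM in F/M controls and 524 to 571 CPM in F/M Tpp1-/- mice. Neither region had an overlap. Gata3, a member of this list, was at 0 in all 3 Cb Tpp1-/- libraries. When the mean log2 level of the list in each library was added to the fit, 0 genes were called, and the median difference of the 481 genes was −0.46 in place of −1. That term separated the groups almost as the contrast does, so that the median standard error over genes rose from 0.15 to 0.63 and 597 genes had an unadjusted p under 0.05. The list holds 14 of the called genes itself. The share of midbrain and thalamic tissue in the Cb samples was not measured, and its part in the results that follow was not tested beyond this fit.

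The stretches upstream of the start are shown for 4 genes that stand for the main patterns, the midbrain and thalamus list (Tcf7l2), the neuropeptides (Vip), the astrocyte genes (Slc6a11) and the genes higher in Cb (Neurod6). Each is the 250 bases before the RefSeq start nearest to the gene's 5′ end on GRCm38.p6, written 5′ to 3′ on the gene's strand. Capitals mark the letters TATAAA (the TATA box), TAATTA (a homeodomain core), CAGCTG (an E box) or CCGCCC (a GC box) on either strand, and adjacent capitals are overlapping or abutting matches.
Tcf7l2, chr19:55741560-55741809, plus strand: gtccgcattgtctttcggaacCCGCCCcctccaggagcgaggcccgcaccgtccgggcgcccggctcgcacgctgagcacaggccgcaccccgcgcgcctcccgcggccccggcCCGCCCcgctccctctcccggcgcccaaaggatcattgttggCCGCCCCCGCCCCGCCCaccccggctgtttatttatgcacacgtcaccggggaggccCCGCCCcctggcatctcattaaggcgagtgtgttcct
Vip, chr10:5638968-5639217, plus strand: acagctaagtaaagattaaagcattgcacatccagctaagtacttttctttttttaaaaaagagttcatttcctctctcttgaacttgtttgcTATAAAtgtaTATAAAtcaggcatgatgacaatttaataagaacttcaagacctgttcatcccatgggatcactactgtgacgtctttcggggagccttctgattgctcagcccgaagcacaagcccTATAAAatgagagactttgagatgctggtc
Slc6a11, chr6:114130991-114131240, plus strand: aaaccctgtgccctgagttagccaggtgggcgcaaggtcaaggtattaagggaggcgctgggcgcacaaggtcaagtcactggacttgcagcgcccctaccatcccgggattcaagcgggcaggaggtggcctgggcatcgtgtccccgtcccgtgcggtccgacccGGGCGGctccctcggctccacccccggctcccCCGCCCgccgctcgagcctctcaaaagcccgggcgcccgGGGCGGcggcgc
Neurod6, chr6:55681264-55681513, minus strand: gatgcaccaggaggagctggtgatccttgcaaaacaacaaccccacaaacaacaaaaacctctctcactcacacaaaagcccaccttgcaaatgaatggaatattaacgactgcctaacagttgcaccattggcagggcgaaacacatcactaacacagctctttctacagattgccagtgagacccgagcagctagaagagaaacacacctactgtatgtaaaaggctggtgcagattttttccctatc
The window of Tcf7l2 held 6 GC boxes, that of Slc6a11 held 3, that of Vip held 3 TATA boxes, the last of them 30 bases before the start, and that of Neurod6 held none of the 4 motifs. A start was found for 354 of the 481 genes called lower, for 18 of the 30 called higher and for 12258 of the genes tested. TATAAA was present in 8.19% of the windows of genes called lower and in 6.71% of all windows, TAATTA in 1.13% and 2.5%, CAGCTG in 16.9% and 12.4%, and CCGCCC in 57.3% and 57.2%. In the 18 windows of genes called higher the shares were 0%, 0%, 16.7% and 27.8% in the same order. These are counts of letters and not of bound sites.

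**Figure D2:**
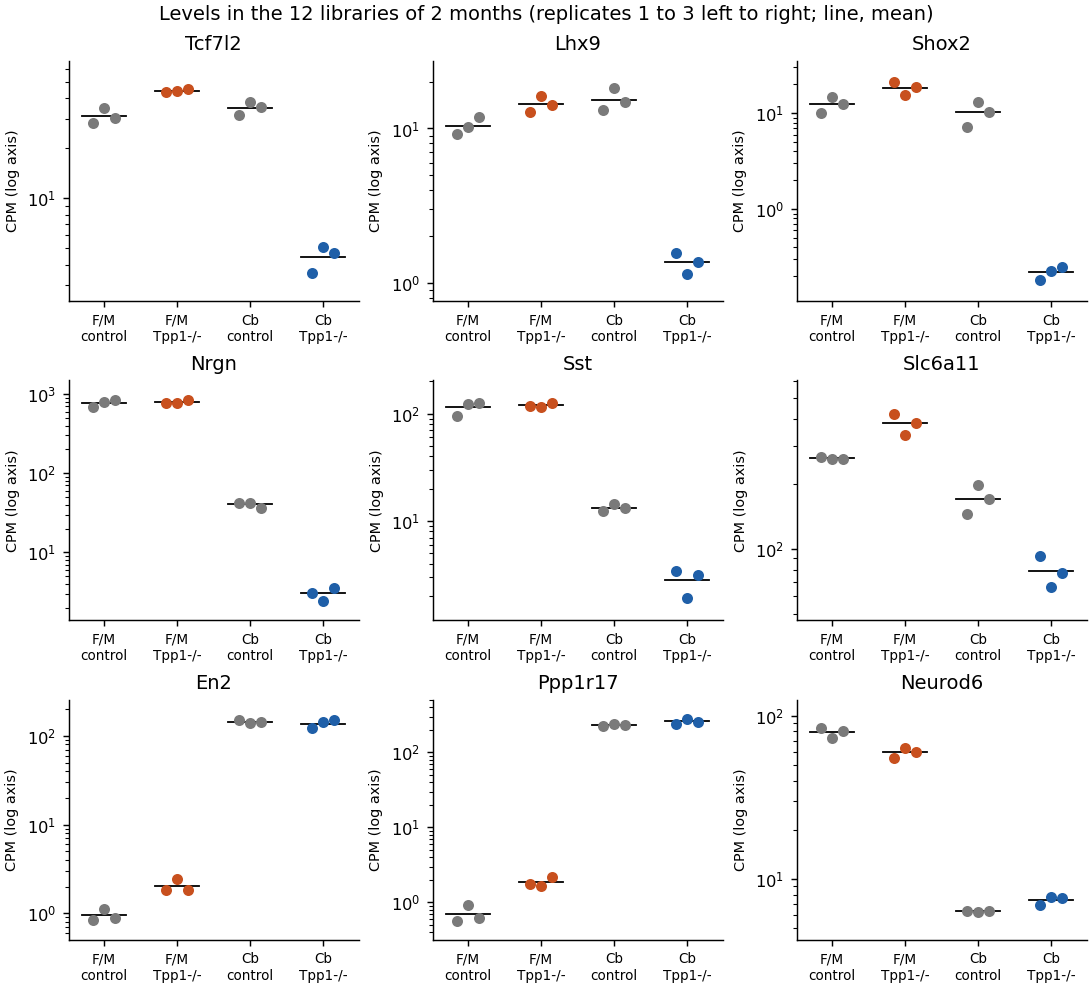
CPM (log axis) of 9 genes in each of the 12 libraries of 2 months, with replicates 1 to 3 side by side and the group mean as a line. Tcf7l2, Lhx9 and Shox2 fell in Cb Tpp1-/- and rose in F/M Tpp1-/- mice, Nrgn and Sst fell in Cb and overlapped in F/M, Slc6a11 moved in opposite directions, En2 and Ppp1r17 rose in F/M from levels near 1 CPM, and Neurod6 fell in F/M.

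Of 8 tested genes of the isthmus and hindbrain list, En1, En2 and Pax5 were called lower and 0 higher, with differences over the list from −2.44 to 0.28. En1 fell in Cb, from 4.89, 5.83 and 5.79 CPM to 1.67, 3.50 and 2.44 CPM, and its region difference was −2.02 ± 0.40 (adjusted p = 0.00802). Pax5 fell in Cb from 1.90, 1.45 and 1.05 CPM to 0.91, 0.363 and 0.312 CPM. En2, which cerebellar neurons keep, overlapped in Cb, at 151, 141 and 142 CPM in controls and 121, 142 and 149 CPM in Tpp1-/- mice, and rose in F/M from 0.846, 1.11 and 0.891 CPM to 1.84, 2.46 and 1.82 CPM. Its difference of −1.18 ± 0.24 (adjusted p = 0.0097) therefore came from F/M. Of 20 tested genes of monoamine and acetylcholine neurons, 5 were called lower, with a median of −0.79. Within the regions 3 fell and 0 rose in Cb, and 4 rose and 0 fell in F/M. The summed level of the list did not fall in Cb, at 354 to 366 CPM in controls and 372 to 382 CPM in Tpp1-/- mice. In F/M it was 278 to 285 CPM in controls and 337 to 354 CPM in Tpp1-/- mice. Slc5a7, the choline transporter of cholinergic terminals, fell in Cb from 2.99, 2.31 and 1.95 CPM to 1.27, 0.318 and 1.00 CPM and rose in F/M from 8.09, 9.75 and 9.22 CPM to 16.0, 14.1 and 12.5 CPM, with a difference of −2.10 ± 0.35 (adjusted p = 0.00143). Chat, which makes acetylcholine, had 13 counts in Cb controls and 1 in Cb Tpp1-/- mice, a ratio of 14.3 (95% interval 2.15 to 608). Tph2, the serotonin-synthesising enzyme of the raphe, was at 3.01, 1.79 and 1.83 CPM in F/M controls and at 2.89, 13.8 and 9.47 CPM in F/M Tpp1-/- mice, of which replicate 1 lay within the controls. Its call was kept in 6 of the 12 fits without a library. Ddc and Htr1a were the other called members.

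Some genes of the cortex and striatum fell in Cb, where their levels are low: 6 of 28 tested, while 1 (Lamp5, described below) rose in Cb, and 1 fell and 0 rose in F/M. For the region difference 5 were called lower and 2 higher, with a median of −0.11. Nrgn (neurogranin, a postsynaptic calmodulin-binding protein of forebrain neurons) had the smallest adjusted p of all genes. It was at 41.6, 42.4 and 36.8 CPM in Cb controls and at 3.09, 2.41 and 3.56 CPM in Cb Tpp1-/- mice. In F/M it was at 691, 783 and 851 CPM in controls and at 774, 762 and 832 CPM in Tpp1-/- mice, so that the groups overlapped there. Its log2 fold change was −3.75 ± 0.12 in Cb and 0.03 ± 0.08 in F/M, and the region difference was −3.78 ± 0.15 (adjusted p = 2.73e-11). Drd2, the dopamine receptor of indirect pathway neurons, went in Cb from 5.06, 4.52 and 5.19 CPM to 0.91, 0.409 and 0.75 CPM (difference −2.96 ± 0.25, adjusted p = 6.87e-07). Bcl11b, a factor of subcerebral projection and striatal neurons, went from 4.89, 5.79 and 5.94 CPM to 1.78, 1.36 and 2.31 CPM in Cb. Rasgrp2 and Camk2a were called lower with differences of −0.79 ± 0.12 and −0.59 ± 0.12. Over the whole list the summed level was 713 to 731 CPM in Cb controls and 591 to 627 CPM in Cb Tpp1-/- mice, which do not overlap.

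Most of the 291 genes called lower that fell in Cb alone had higher levels in F/M than in Cb in control mice of the other ages. This was read from control libraries of 1 and 3 months, which took no part in the contrast and of which replicate 3 of 1 month is heterozygous in both regions. In these, the median log2 ratio of F/M to Cb level was 2.04 for the 291 genes that fell in Cb alone, with quartiles of 1.16 and 2.78, and −0.03 over the 17208 genes tested that have values at both ages. Of the 291, 272 (93.5%) were higher in F/M at both ages, against 41.1% of all genes, and 150 (51.5%) were at least 4-fold higher, against 3.60%. The 94 genes that rose in F/M alone had a median of −0.08, and 35 of them (37.2%) were higher in F/M at both ages. For all 481 genes the median was 1.29, 1.32 at 1 month alone and 1.29 at 3 months alone, where all controls are wild type.

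**Figure D3:**
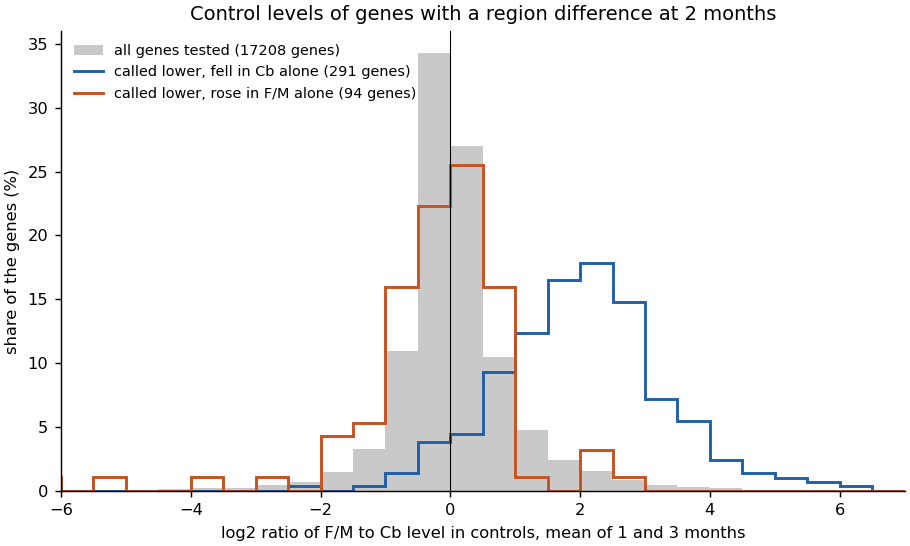
Distribution of the log2 ratio of F/M to Cb level in control mice (mean of 1 and 3 months, x axis) as the share of genes per bin (y axis), for all genes tested (grey), the 291 genes that fell in Cb alone (blue) and the 94 that rose in F/M alone (orange). The blue curve lies to the right, around its median of 2.04, and the orange curve over the grey one.

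Of 28 tested neuropeptide precursors 9 fell in Cb, while 1 rose and 1 fell in F/M. For the region difference 7 were called lower and 0 higher, with a median of −0.87. Vip was at 1.55, 1.94 and 2.00 CPM in Cb controls and at 0.109, 0.0908 and 0.0625 CPM in Cb Tpp1-/- mice. It also fell in F/M, from 41.7, 43.1 and 42.6 CPM to 31.5, 36.3 and 32.2 CPM, by much less. The log2 fold changes were −4.24 ± 0.31 in Cb and −0.35 ± 0.08 in F/M, with a difference of −3.89 ± 0.33 (adjusted p = 8.57e-07). Sst (somatostatin) was at 12.4, 14.3 and 13.1 CPM in Cb controls and at 3.42, 1.91 and 3.12 CPM in Cb Tpp1-/- mice, while F/M overlapped at 95.9 to 127 CPM and 116 to 126 CPM. Its difference was −2.29 ± 0.20 (adjusted p = 8.57e-07). Tac1, the precursor of substance P, went in Cb from 6.50, 8.73 and 8.54 CPM to 1.93, 0.136 and 1.00 CPM, and replicate 2 was the lowest. Cbln2, a synaptic organiser, went from 7.94, 10.6 and 9.84 CPM to 1.42, 0.409 and 0.875 CPM, and Cartpt and Pnoc were also called. Cck, the last of the 7, was at 26.2, 29.7 and 27.5 CPM in Cb controls and 15.5, 21.2 and 25.6 CPM in Cb Tpp1-/- mice, and its call was kept in 7 of 12 fits. Among 19 tested genes of inhibitory neurons, 5 were called lower (Vip, Sst, Tac1, Sncg and Slc6a5) and Lamp5 was called higher, with a list median of −0.10. Within Cb 4 of the 19 fell and 1 rose, with a median change of 0.05. The summed level of this list did not fall in Cb, at 3830 to 3850 CPM in controls and 3880 to 4220 CPM in Tpp1-/- mice.

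Among transmitter receptors, 5 of 16 acetylcholine receptors, 6 of 23 GABA and glycine receptors and 8 of 28 monoamine receptors fell in Cb, and 0, 0 and 1 rose in F/M. Of the 16 tested acetylcholine receptor genes 5 were called lower (Chrm2, Chrm3, Chrna4, Chrna3 and Chrm1), with a median of −0.72. Chrm2 was at 14.1, 19.2 and 18.3 CPM in Cb controls and at 10.2, 8.4 and 9.18 CPM in Cb Tpp1-/- mice, with a difference of −1.18 ± 0.18 (adjusted p = 0.000768). The calls of Chrm1 and Chrna3 were kept in 4 and 5 of the 12 fits, and 2 of the 5 receptor calls remained without Cb control replicate 2. Of 23 GABA and glycine receptor genes 7 were called lower, with a median of −0.21, and the called subunits were Glra3, Gabrg3, Glra2, Gabra5, Gabrq, Gabrg1 and Gabra3. Glra3 went in Cb from 5.58, 10.5 and 8.29 CPM to 2.18, 0.999 and 1.62 CPM, with F/M levels that overlapped, and its difference was −2.46 ± 0.30 (adjusted p = 5.38e-05). Gabra5, the extrasynaptic subunit of the hippocampus, went from 3.85, 5.97 and 6.14 CPM to 2.73, 0.727 and 1.12 CPM in Cb. Of 28 monoamine receptor genes 6 were called lower (Drd2, Htr1a, Htr2c, Htr7, Hrh3 and Htr4). Htr1a went in Cb from 2.70, 4.11 and 2.60 CPM to 0.546, 0.182 and 0.625 CPM (difference −2.90 ± 0.32, adjusted p = 1.93e-05).

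Of 25 glutamate receptor genes 2 were called lower, Grm5 and Grin2d. Grm5, a metabotropic receptor, went in Cb from 29.0, 37.2 and 34.5 CPM to 13.9, 11.6 and 11.5 CPM and overlapped in F/M, at 231 to 297 CPM in controls and 233 to 289 CPM in Tpp1-/- mice. Of 89 potassium channel genes 10 were called lower and 1 higher, with a median of −0.23. Kcnip2, a subunit of A-type channels, went in Cb from 8.51, 7.01 and 6.84 CPM to 2.87, 2.36 and 2.62 CPM (difference −1.37 ± 0.15, adjusted p = 1.52e-05). Kcnip3, of the same family, was the member called higher: it fell in F/M from 152, 137 and 146 CPM to 111, 116 and 117 CPM and overlapped in Cb. Of 37 sodium and calcium channel genes 5 were called lower and Cacna2d3 was called higher. Scn3b went in Cb from 10, 12 and 11.5 CPM to 6.29, 4.45 and 5.31 CPM. Without F/M Tpp1-/- replicate 3, 6 of the 11 potassium channel calls remained, and without Cb Tpp1-/- replicate 2, 3 of the 6 calls of sodium and calcium channels. Among cell adhesion and guidance genes, those called lower were 9 of 87 cadherins and protocadherins, of which 3 remained without Cb control replicate 2, 5 of 64 guidance molecules and 3 of 32 Wnt ligands and receptors. Of 270 solute carriers 9 were called lower, of 43 collagens 2 (1 without Cb Tpp1-/- replicate 2) and of 64 axonemal and cilia proteins 1. Slit1, a repulsive guidance ligand of the forebrain, had the smallest adjusted p of these, with 4.83, 6.92 and 7.09 CPM in Cb controls and 1.75, 1.14 and 1.62 CPM in Cb Tpp1-/- mice (difference −2.21 ± 0.20, adjusted p = 1.61e-06).

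**Figure D4:**
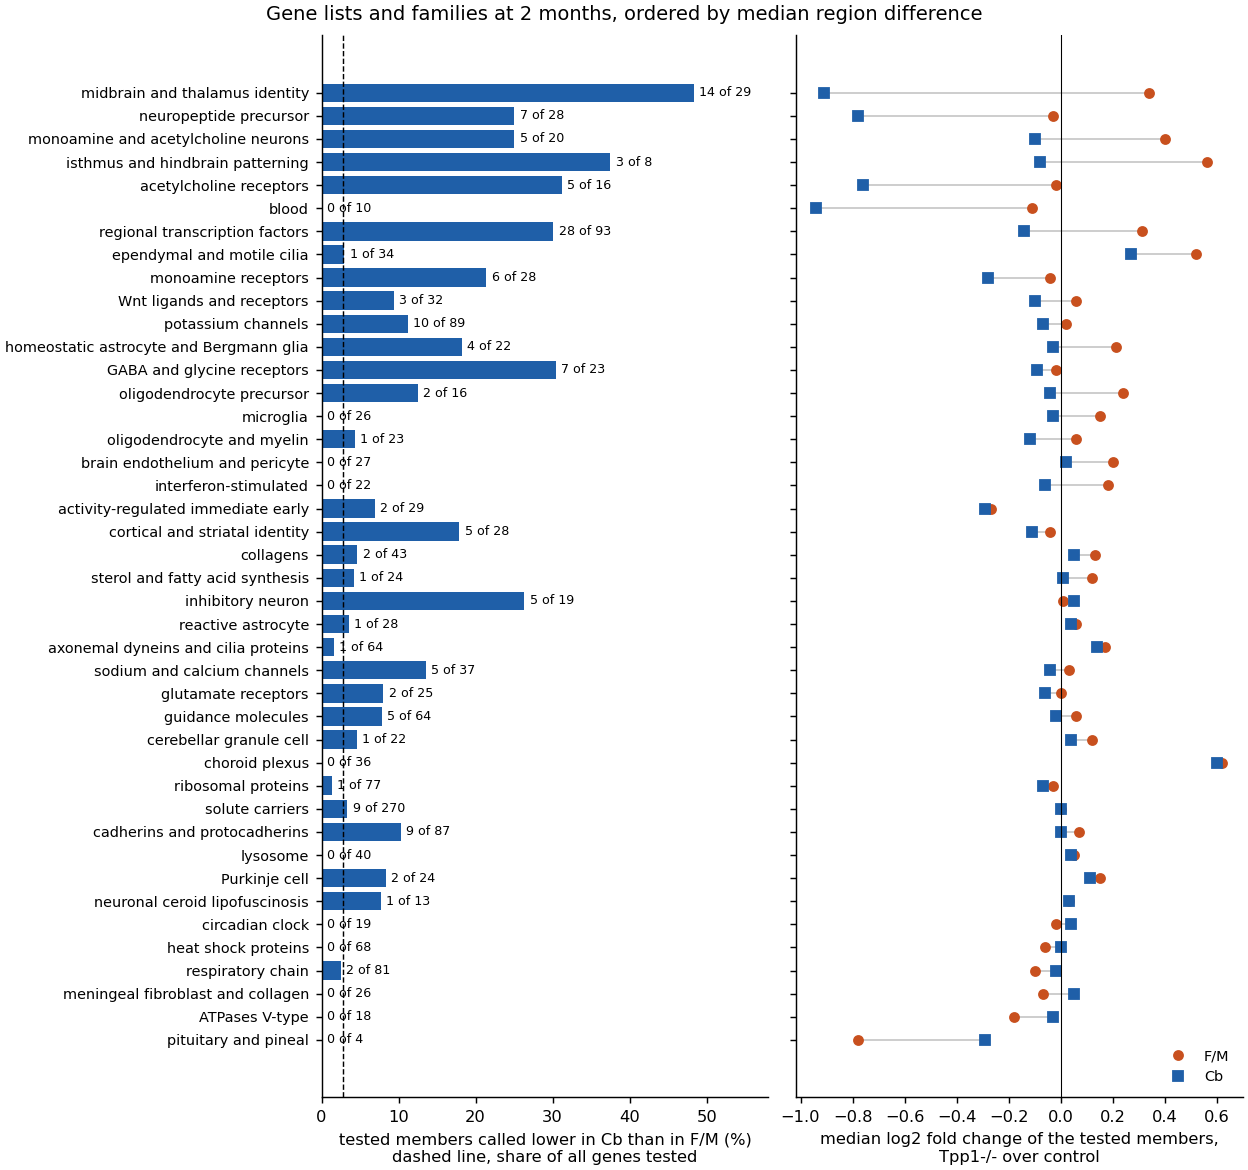
For each gene list or family, the share of tested members called lower in Cb than in F/M (left, bars, with counts, the dashed line marking the 2.79% of all genes tested) and the median log2 fold change of its members in F/M (circles) and in Cb (squares, right). Midbrain and thalamus genes lead with 14 of 29, the medians of choroid plexus genes coincide near 0.6 in both regions, and lists of lysosomal genes, heat shock proteins and V-type ATPases have no call.

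Of 22 tested genes of homeostatic astrocytes and Bergmann glia, 4 were called lower (Slc6a11, Slc6a9, Fgfr3 and Gja1), the median region difference was −0.22, and 7 rose in F/M. Slc6a11, the GABA transporter GAT3 of astrocytes, was at 267, 259 and 259 CPM in F/M controls and at 422, 335 and 384 CPM in F/M Tpp1-/- mice. In Cb it was at 144, 198 and 170 CPM in controls and at 92.1, 66.3 and 77.3 CPM in Tpp1-/- mice. It thus moved in opposite directions, with no overlap in either region, by 0.54 ± 0.11 in F/M and −1.12 ± 0.12 in Cb (difference −1.66 ± 0.16, adjusted p = 4.38e-06). Slc6a9, the glial glycine transporter, rose in F/M from 59.2, 62.6 and 59.9 CPM to 75.2, 69.3 and 73.8 CPM, and in Cb it was at 114, 119 and 115 CPM in controls and 102, 103 and 112 CPM in Tpp1-/- mice, where it was not called. Gja1 (connexin 43) and Fgfr3 were higher in every F/M Tpp1-/- library, with differences of −0.39 ± 0.11 and −0.45 ± 0.13, but their calls were kept in 5 and 4 of the 12 fits and Fgfr3 was called in neither region alone. Without Cb Tpp1-/- replicate 3, 2 of the 4 calls remained. Scd1, a desaturase of fatty acid synthesis, rose in F/M from 223, 197 and 207 CPM to 295, 266 and 273 CPM, and in Cb it was at 220, 243 and 233 CPM in controls and 216, 215 and 207 CPM in Tpp1-/- mice. Its difference was −0.54 ± 0.09 (adjusted p = 0.00249). It was the only called member of 24 sterol and fatty acid genes, 6 of which rose in F/M and 0 in Cb. In the precursors of oligodendrocytes Olig1 and Lhfpl3 were called of 16 tested, 1 of the 2 remaining without Cb control replicate 3, and among myelin genes Gpr37 of 23, with its call kept in 5 of 12 fits.

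Some genes of the cerebellum and hindbrain were called through a rise in F/M, where their levels are low, as En2 above. Ppp1r17, a phosphatase inhibitor of Purkinje cells, was at 0.564, 0.918 and 0.629 CPM in F/M controls and at 1.74, 1.64 and 2.2 CPM in F/M Tpp1-/- mice, and in Cb at 228, 238 and 232 CPM and at 239, 283 and 257 CPM. Its difference was −1.20 ± 0.25 (adjusted p = 0.0102). Slc6a5, the glycine transporter of glycinergic neurons, went in F/M from 0.846, 0.29 and 0.419 CPM to 1.49, 4.04 and 2.2 CPM and overlapped in Cb at 38.3 to 44.0 CPM and 43.0 to 56.8 CPM (difference −1.97 ± 0.43, adjusted p = 0.0192). Barhl1, a factor of granule cells, rose in F/M from 0.517, 0.338 and 0.681 CPM to 1.3, 1.07 and 1.24 CPM, a call that was lost without F/M Tpp1-/- replicate 1 (adjusted p = 0.107). Of 24 Purkinje cell genes 2 were called lower (Ppp1r17 and Foxp2, the latter falling in Cb from 22.0, 24.5 and 23 CPM to 12.4, 16.3 and 14.6 CPM), with a list median of 0, and of 22 granule cell genes Barhl1 alone, with a median of −0.06. For the change within F/M, 3 of the 24 and 4 of the 22 rose, and 0 and 1 fell. The mean log2 level in F/M was 3.94 to 3.95 in controls and 4.07 to 4.14 in Tpp1-/- mice for the Purkinje list, and 3.71 to 3.73 and 3.81 to 3.88 for the granule cell list, with no overlap in either. The summed level of the Purkinje list overlapped in F/M, at 1590 to 1820 CPM in controls and 1730 to 1740 CPM in Tpp1-/- mice. That of the granule cell list went the other way in F/M, from 1840 to 1880 CPM in controls to 1640 to 1690 CPM in Tpp1-/- mice. The number of genes that changed at least 1.5-fold in F/M, 127 (0.737%; 15 fell, 0.0871%), was 20 without F/M Tpp1-/- replicate 1 and 352 without F/M control replicate 1. In the 94 genes that rose in F/M alone, the region difference remained called for at least 43, the fewest being without Cb control replicate 2.

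Among the 30 genes called higher in Cb the median log2 fold change was −0.32 in F/M and 0.17 in Cb. Neurod6, a bHLH factor of cortical excitatory neurons, fell in F/M from 84.4, 73.4 and 81.1 CPM to 55.4, 63.5 and 60.3 CPM and was at 6.33, 6.28 and 6.39 CPM in Cb controls and 6.91, 7.77 and 7.62 CPM in Cb Tpp1-/- mice. No groups overlapped, and the difference was 0.64 ± 0.13 (adjusted p = 0.00739). Znhit3, a factor of small nucleolar particle assembly, fell in F/M from 21.4, 25.6 and 21.2 CPM to 14.9, 15.1 and 16.5 CPM and overlapped in Cb. Igfn1 rose in Cb from 0.978, 0.633 and 0.649 CPM to 1.56, 1.59 and 1.5 CPM, with a difference of 1.3 ± 0.22 (adjusted p = 0.00211). Lamp5, a membrane protein of cortical neurons, had a difference of 1.67 ± 0.40 (adjusted p = 0.0351). In F/M it was at 152, 162 and 157 CPM in controls and at 108, 128 and 121 CPM in Tpp1-/- mice, which do not overlap, with a log2 fold change of −0.41 ± 0.19 that was not called (adjusted p = 0.29). In Cb it was at 2.65, 3.07 and 1.80 CPM in Cb controls and at 9.57, 2.04 and 6.06 CPM in Cb Tpp1-/- mice, which overlap, although its log2 fold change of 1.27 in Cb was called (adjusted p = 0.0817). The call of its region difference was lost without Cb Tpp1-/- replicate 1 or Cb control replicate 3 (at the highest adjusted p of these fits, 0.23, the difference was 1). Npr3, the clearance receptor of natriuretic peptides, went in Cb from 5.98, 5.79 and 5.14 CPM to 6.77, 10.7 and 10.9 CPM, and its call was kept in 5 of 12 fits. The unannotated Gm40518 went in Cb from 0.0575, 0.0452 and 0.0499 CPM to 1.31, 0.273 and 0.625 CPM, or from 3 counts to 52, and its fitted difference of 3.94 depends on the prior count. Gh, of 4 tested pituitary and pineal genes, was at 0.299, 0 and 0.383 CPM in F/M Tpp1-/- mice and 0.94, 1.3 and 1.57 CPM in F/M controls, and it was called in 1 of the 12 fits.

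Lists of immune, vascular, choroid plexus and lysosomal genes gave few or no calls for the region difference. Since 2.97% of all genes tested were called, 0 or 1 call in a list of this size lies near that share. For microglia the count was 0 of 26, with a median of −0.20, a smallest adjusted p of 0.264 (Laptm5) and 2 members with an unadjusted p under 0.05, and DESeq2 and limma-voom also called 0. Of the 26 microglia differences 20 were negative. Of 28 reactive astrocyte genes Serpina3n alone was called, falling in Cb from 3.85, 5.52 and 4.94 CPM to 2.69, 2.36 and 2.5 CPM, with its call kept in 8 of 12 fits. Of 36 choroid plexus genes 20 rose in Cb, where 0.36% of all genes rose, and 15 in F/M, with medians of 0.60 and 0.62. Their summed level was 2090 to 2490 CPM in Cb controls and 3230 to 3510 CPM in Cb Tpp1-/- mice. In F/M it overlapped, at 747 to 1330 CPM in controls and 1200 to 1640 CPM in Tpp1-/- mice. The median region difference of the choroid plexus genes was −0.04, with 0 calls, 1 member with an unadjusted p under 0.05, and 0 calls by DESeq2 and limma-voom. Kl (klotho), which helps hold calcium in the cerebrospinal fluid, was at 50, 38.1 and 42.2 CPM in Cb controls and 75.6, 64.0 and 69.7 CPM in Cb Tpp1-/- mice, and in F/M at 12.1, 20.5 and 16.2 CPM and 42.9, 20.3 and 28.3 CPM, with a difference of −0.24 ± 0.28 (adjusted p = 0.822). With the choroid plexus level as a term, 851 genes were called in place of 511, and all 511 were among them. Of 34 ependymal genes Foxj1 was called, in 3 of 12 fits.

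For the lysosome the count was 0 of 40, with a median of −0.01 and differences between −0.34 and 0.28, a smallest adjusted p of 0.105 (Gaa), 2 members with an unadjusted p under 0.05 and 1 call each by DESeq2 and limma-voom. Psap, the saposin precursor, was at 1480, 1470 and 1460 CPM in Cb controls and 1440, 1480 and 1480 CPM in Cb Tpp1-/- mice. Among 13 genes of neuronal ceroid lipofuscinosis Atp13a2 alone was called (−0.31 ± 0.09, kept in 3 of 12 fits). The counts were 0 of 27 for endothelium and pericytes, 0 of 26 for meningeal genes, 0 of 22 for interferon-stimulated genes, 0 of 19 for the circadian clock, 0 of 10 for blood, 0 of 68 for heat shock proteins and 0 of 18 for V-type ATPases, with 2, 4, 2, 3, 0, 3 and 3 members at an unadjusted p under 0.05, and DESeq2 and limma-voom also called 0 in each. In the same order 24, 7, 16, 8, 10, 22 and 4 of the region differences were negative. Of the 10 blood genes 4 fell in Cb and 0 in F/M, the median changes were −0.94 in Cb and −0.11 in F/M, and all 10 region differences were negative (median −0.53). Their summed level was 106 to 228 CPM in Cb controls and 92.8 to 136 CPM in Cb Tpp1-/- mice, which overlap, and their part in the other falls in Cb was not tested. In the edgeR fit with no filter, the blood gene Hbb-bs was called (difference −0.54, adjusted p = 0.000132). Ribosomal proteins had 1 call of 77 and the respiratory chain 2 of 81, Cox6a2 and Cox8a, and 0 of either remained without Cb Tpp1-/- replicate 1. Of 29 immediate early genes Egr3 and Junb were called, and 1 of these 2 remained without Cb Tpp1-/- replicate 1, Junb being called in 6 of the 12 fits and Egr3 in all 12. Egr3, an activity-induced zinc finger factor, went in Cb from 3.74, 2.58 and 2.70 CPM to 0.764, 0.454 and 0.875 CPM, with a difference of −1.79 ± 0.34 (adjusted p = 0.00599). In that list 7 genes fell in Cb and 8 in F/M (0.905% of all genes fell in F/M), and the median changes were −0.29 and −0.27.

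The region difference was found at 2 months and hardly at the other ages. The same contrast called 0 of 17916 genes at 1 month (0%) and 1 of 17224 at 3 months (0.00581%), with 347 and 604 genes at an unadjusted p under 0.05, against 1987 at 2 months. The gene called at 3 months was Lpl, lipoprotein lipase (adjusted p = 0.029), named after its value was seen, and DESeq2 called 0 and 9. Over genes the median standard error was 0.15 in the fit of 2 months, against 0.20 in that of 1 month and 0.22 in that of 3 months. In a fit of all 36 libraries, the region difference at 2 months minus that at 3 months was called for 146 of 18322 genes (0.797%), lower for 133 (0.726%) and higher for 13 (0.071%). That contrast shares the 12 libraries of 2 months, so that its overlap with the 481 genes, 118, and their common sign follow in part from how the 481 were chosen. The libraries of the ages were counted with different annotations and strand settings, so that age and processing cannot be told apart where levels are compared. The region difference of 1 age lies within that age and its settings, but the difference between 2 and 3 months spans both, and there too age and processing cannot be told apart. Gapdh shows how far a level can shift: it was at 8.37 to 12.7 CPM in the libraries of 2 months, 128 to 174 CPM at 1 month and 136 to 201 CPM at 3 months. Among 17208 genes with values at all ages, 27 were at least 4-fold lower, on the log2(CPM + 0.5) scale, in controls of 2 months than at both other ages in F/M and 21 in Cb, and 19 were higher in each region. Of the 481 genes 0 were among those lower and 1 among those higher in either region, and of the 30 genes called higher 0 were among either. Tcf7l2 lay between 32.5 and 36.3 CPM in Cb controls and between 31.7 and 46.1 CPM in Cb Tpp1-/- mice at 1 month, and between 27.5 and 31.1 CPM and between 31.1 and 47.5 CPM at 3 months. Its region difference was 0.39 ± 0.18 at 1 month (adjusted p = 1) and 0.65 ± 0.19 at 3 months (adjusted p = 1), and the difference between 2 and 3 months was −4.13 ± 0.27 (adjusted p = 5.23e-12). In Cb Tpp1-/- mice Nrgn ranged over 30.2 to 48.4 CPM at 1 month and over 24.9 to 61.7 CPM at 3 months, with region differences of 0.26 ± 0.20 and 0.58 ± 0.34. Among the 481 genes, 139 of 480 had a negative difference at 1 month and 234 of 479 at 3 months, and the medians were 0.09 and 0. The mean log2 level of the midbrain and thalamus list in Cb Tpp1-/- mice lay between 1.40 and 1.47 at 2 months, against 2.28 to 2.61 in Cb controls of that age. Cb Tpp1-/- mice of 1 month had 2.37 to 2.42 and those of 3 months 2.22 to 2.54. The low values thus belonged to the 3 Cb Tpp1-/- libraries of 2 months, and every other group of either region lay at 2.05 or above.

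**Figure D5:**
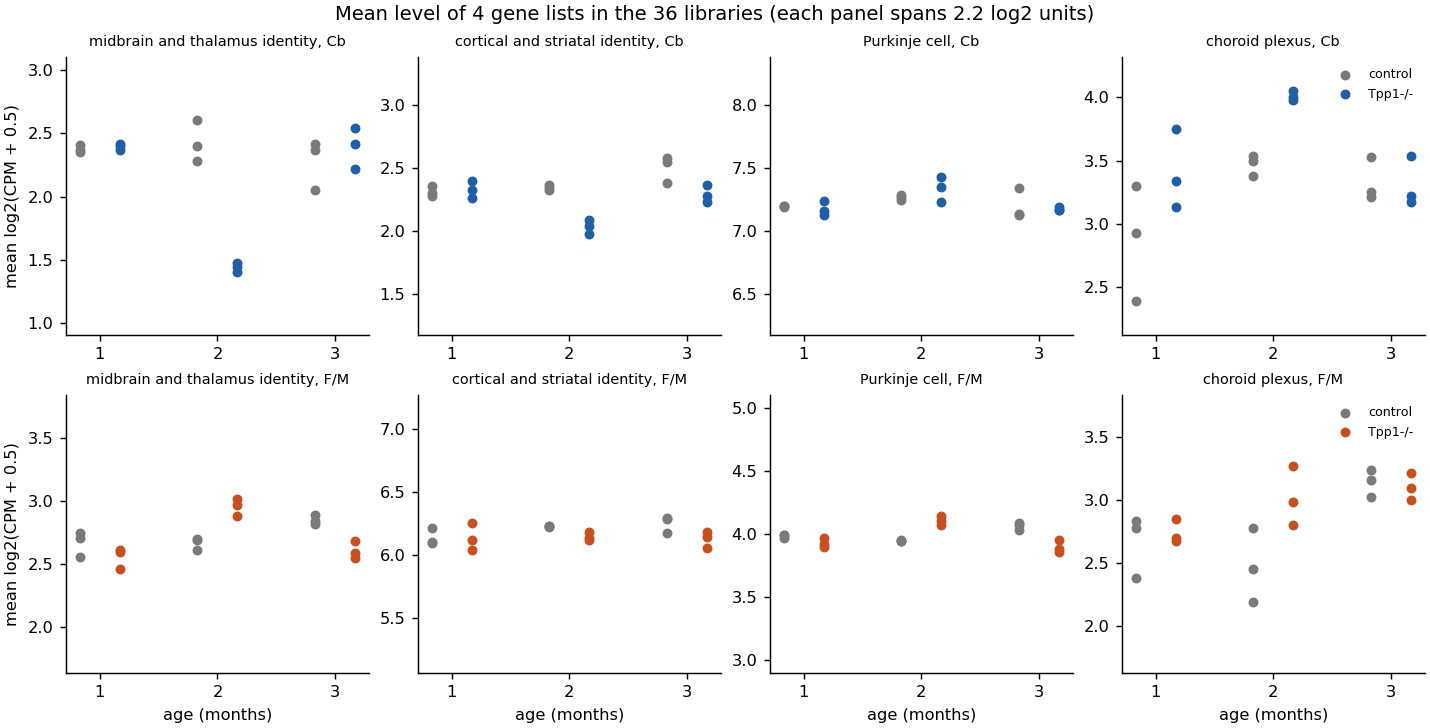
Mean log2(CPM + 0.5) of 4 gene lists in each of the 36 libraries by age (x axis), in Cb (top) and F/M (bottom), for controls (grey) and Tpp1-/- mice (coloured), 1 point per library. At 2 months the midbrain and thalamus genes of Cb Tpp1-/- mice lie at 1.40 to 1.47, below all other libraries. Those of cortex and striatum lie at 1.98 to 2.09, and Purkinje cell genes overlap in Cb. Choroid plexus genes are higher in Cb Tpp1-/- mice, at 3.98 to 4.05 against 3.38 to 3.54 in controls. In F/M their groups nearly meet, at 2.19 to 2.78 in controls and 2.80 to 3.27 in Tpp1-/- mice.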

How the data were processed

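The deposited values are counts of reads for each gene, not normalized by the authors, who aligned single-end reads to the mouse genome (GRCm38) with STAR 2.5.2b and counted with featureCounts. The headers show that the 2-month counts came from featureCounts 1.6.2 with GENCODE M16 and strand setting 2, and those of 1 and 3 months from GENCODE M21 and M18 with setting 1. Reads with several matches were counted as fractions per the headers, yet every value is whole. Genes were filtered with filterByExpr and tested with edgeR 4.0.16 (TMM, quasi-likelihood F test, two-sided, SE from the F statistic) in R 4.3.3 on the 12 libraries with 4 groups, adjusted over all genes by Benjamini-Hochberg. Single-region counts of at least 1.5-fold changes are named as such. The genes named are Tpp1, the 12 most negative and 12 most positive called genes with a mean of at least 1 CPM, up to 6 called members of each list, and 3 members of lists without a call. Other called members are listed by name, and genes of the closing section are said to be chosen later. The comparison, members and lists were chosen with earlier results of these data known, so that they are no independent support. Alternatives were DESeq2 1.42.0, limma-voom (limma 3.58.1), RLE factors, library totals, other filters and thresholds, replicate blocks, list levels as terms, and each library left out. In simulated counts of 17229 genes for this contrast, 90 of 100 genes changed by 1 on the log2 scale and 96 of 100 changed by 2 were called, beside 17 false calls. The changed genes were drawn from those above a minimum mean count and were changed in the Cb Tpp1-/- libraries alone. These shares therefore do not cover genes with few counts. No 2 libraries of a group agreed within sampling noise. Figures were drawn with matplotlib 3.10.9. Some members of the lists are not reported here.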

Additional observations from a re-analysis of the deposited data

Results flagged for a closer look

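Every result of the contrast is a difference between the effects in Cb and F/M, and those listed here passed a test of that difference. They are the 481 genes lower and 30 genes higher in Cb, the 146 genes whose region difference differed between the libraries of 2 and 3 months, where age and processing cannot be told apart, and the 12 largest differences of each sign among called genes with a mean of at least 1 CPM, which leaves out rarer genes such as Gh (2.13). On the log2 scale the lowest were −8.29 for Six3, −8.01 for Gata3, −6.76 for Tfap2d, −6.37 for Nr2e1, −6.13 for Shox2, −6.12 for Six3os1, −5.20 for Pou4f2, −4.30 for Emx2os, −4.17 for Lrp8os2, −4.16 for Emx2, −4.13 for Gm44846 and −4.08 for Cox6a2. Except for Shox2 and Pou4f2, these rest on 3 counts or fewer in Cb Tpp1-/- mice, where the fitted value depends on the prior count. The ratios of counts were 28.6 (95% interval 4.7 to 1170) for Lrp8os2, 6.97 (2.05 to 36.8) for Gm44846 and 19.8 (3.13 to 825) for Cox6a2, and Lrp8os2, Gm44846 and Cox6a2 were called in 8, 8 and 11 of the 12 fits without a library. The highest were 3.94 for Gm40518, 1.67 for Lamp5, 1.63 for Gm43154, 1.46 for Ly6g6e, 1.34 for Asgr1, 1.3 for Igfn1, 1.1 for Mirt1, 1.08 for Gm43267, 0.82 for Npr3, 0.64 for Neurod6, 0.59 for Muc3a and 0.58 for Znhit3. Of these, Gm40518, Ly6g6e, Igfn1, Neurod6 and Znhit3 were called in all 12 such fits, and Gm43267 in 2. Groups of 3 libraries were not searched for single outlying samples.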

How the results depend on the processing

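The direction of the contrast, with many more genes lower than higher in Cb, held under every alternative that made calls. The count of genes lower in Cb lay between 305 and 711 without 1 library and was 739 with the choroid plexus level as a term and 0 with the midbrain and thalamus level. The count of genes higher in Cb lay between 13 and 121 without 1 library and was 94 with no filter, 16 at an adjusted p under 0.05, 14 at 1.5-fold, 112 and 0 with the 2 list levels in that order. DESeq2 called 518 genes, 465 of them among the 511, and limma-voom 491 and 475. Genes changed in Cb numbered 353 at 1.5-fold (257 to 384 without 1 library) and 530 with no fold minimum. In F/M they numbered 127 (20 to 352 without 1 library), 82 by DESeq2, 222 with no filter, 64 at an adjusted p under 0.05 and 546 with no fold minimum. At 1 month, 28 genes were called with no filter. At 3 months the count was 0 to 23 without 1 library (23 without Cb control replicate 3), 9 by DESeq2 and 75 with no filter. Of the named genes called, 77 were called in all 12 fits without a library and 39 lost the call in at least 1.

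With the midbrain and thalamus level as a term, where the median standard error was 0.63 in place of 0.15 since the term separates the groups, 21 named genes changed sign, each with an adjusted p of 1: Igfn1 −0.09, Neurod6 −0.04, Muc3a −0.69, Ddc 0.87, Slc6a11 0.23, Slc6a9 0.06, Fgfr3 0.22, Gja1 0.37, Serpina3n 1.17, Foxj1 0.44, Gpr37 0.08, Scn3a 0.23, Scn9a 0.27, Gabrg1 1.16, Chrna4 0, Hrh3 0.09, Sema3f 0.33, Cdh9 0.52, Pcdh19 0.32, Fzd2 1.20 and Sfrp2 0.02.

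The replicate numbers were not taken to pair the samples. Correlations of deviations between same-numbered F/M and Cb libraries were −0.01 on average in controls (−0.031 to 0.013) and 0.084 in Tpp1-/- mice (0.058 to 0.099, against −0.081 to −0.014 for different numbers). Between Cb controls and Cb Tpp1-/- mice they were 0.077 for the same number (−0.037 to 0.164) and −0.038 for different ones. In Tpp1-/- mice each library thus correlated best with its own number. The deviations were taken within each group of 3, so that values for different numbers follow largely from those for the same number. Cb controls and Cb Tpp1-/- mice, which are not the same mice, gave a mean of similar size. That of F/M controls and F/M Tpp1-/- mice was 0. These correlations therefore cannot decide whether the numbers pair the samples. With a replicate block that treats the same number in F/M and Cb as 1 mouse, 498 genes were called at 2 months, 436 of them among the 511, and 5 at 1 month and 0 at 3 months. With a block by number within a region, 478 were called at 2 months, 416 of them shared, and 5 at 3 months. At 10609896 to 27048487 counts per library, differences of genes with 3 counts or fewer in a group cannot be sized.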

Other observations

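Several genes called lower in Cb are known to be imprinted; they were picked after their values were seen, and imprinted genes as a class were not tested. Peg10, expressed from the paternal allele, was at 62.9, 56.6 and 59.9 CPM in F/M controls and at 104, 94.7 and 99.7 CPM in F/M Tpp1-/- mice, and overlapped in Cb, with a region difference of −0.69 ± 0.12 (adjusted p = 0.00218). Magel2, of the Prader-Willi region, rose in F/M from 6.35, 7.97 and 6.55 CPM to 10.7, 9.59 and 10.4 CPM and fell in Cb from 1.90, 1.40 and 1.55 CPM to 0.40, 0.454 and 0.25 CPM (difference −2.61 ± 0.30, adjusted p = 2.73e-05). Grb10 had a difference of −0.51 ± 0.09, Usp29 of −0.66 ± 0.15, Zim1 of −0.78 ± 0.20 and Dlk1 of −1.71 ± 0.43, the last 2 called in 9 and 8 of the 12 fits without a library.

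Tachykinin receptors, also chosen after their values were seen, fell in Cb, as did Tac1, the precursor of substance P. Tacr3 went in Cb from 1.67, 3.07 and 2.65 CPM to 0.473, 0.0908 and 0.187 CPM, and Tacr1 from 2.59, 3.44 and 2.5 CPM to 0.655, 0.0908 and 0.437 CPM, with differences of −3.59 ± 0.40 (adjusted p = 1.98e-05) and −3.08 ± 0.36 (adjusted p = 2.73e-05). Some genes that rose in F/M varied widely within each group. Pcsk1n, an inhibitor of a prohormone convertase, was at 85.8, 111 and 164 CPM in F/M controls and at 273, 213 and 323 CPM in F/M Tpp1-/- mice, and Ccdc85b at 11.8, 14.8 and 27.2 CPM and at 44.3, 36.5 and 50.3 CPM. In both genes the third control was the highest of the controls.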
